A study of Rattus norvegicus with 6 samples.

Results

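Expression of 10 genes of vitamin D metabolism and distal calcium transport was described in rat kidney RNA hybridised to 6 one-colour Agilent arrays, 3 from diabetic rats and 3 from rats given Bailing Capsule, a fermented Cordyceps preparation. All animals were 21 weeks old. The labels give neither strain, sex, dose nor the way diabetes was produced, do not say whether the treated rats were diabetic, and name no untreated healthy group. Each array is labelled as a separate replicate, and nothing else says how the samples were collected, so the spread between arrays may be partly technical. The series asks how the preparation affects gene expression in the kidney.

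The 10 genes are Cyp24a1, Cyp27b1, Vdr, Trpv5, Trpv6, Calb1, S100g, Slc8a1, Atp2b1 and Atp2b4. They were chosen by pathway, with the differences between the groups on these arrays already in view, so those differences are given as a description and without a test of their own. All probes whose RefSeq accession maps to one of these symbols were taken, which gave 10 of 15168 named genes and 15 of 30367 probes on the array. All 10 genes passed the filter on dim probes, among 17892 features tested. Of their 15 probes, 1 of Trpv5 and 1 of Slc8a1 did not pass.

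The kidney makes and destroys the active form of vitamin D. The 1-alpha-hydroxylase encoded by Cyp27b1 activates the circulating precursor, the 24-hydroxylase encoded by Cyp24a1 inactivates it, and the active hormone acts through the vitamin D receptor, Vdr, a nuclear receptor that induces Cyp24a1 in turn. In the distal convoluted and connecting tubule, calcium enters the cell through the apical channels TRPV5 and TRPV6, is carried by the calbindins encoded by Calb1 and S100g, and leaves through the sodium-calcium exchanger Slc8a1 and the plasma membrane calcium pumps Atp2b1 and Atp2b4. Several of these transport genes are known targets of the receptor.

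Array values are log2 processed signals minus the 75th percentile of their array. They can be compared between arrays for 1 probe, not between probes. Differences are Bailing Capsule minus diabetic on the log2 scale, and a feature was called at an adjusted p under 0.05 in a limma fit over all features. The share of probes well above background ran from 65.0% to 73.7% over the arrays. Of the kidney markers, 16 of 16 proximal tubule genes, 14 of 14 thick ascending limb genes on the array and 13 of 13 collecting duct genes were above the filter, as were 13 of 17 distal convoluted and connecting tubule genes on the array. So were 11 of 16 markers of other cells, while 5 of 6 bone and parathyroid genes were below it. The file headers give 2 scan times and the array positions but no slide name, and arrays of 1 scan time were taken to share a slide. By this reading the Bailing Capsule arrays were all on slide 1, with diabetic replicate 1 beside them, and slide 2 carried the other 2 diabetic arrays. A difference with slide as a block therefore equals the difference within slide 1 and rests on 1 diabetic array; the median over all features then moves from -0.09 to 0.09. In RNA of kidney tissue, fewer cells of a type and less RNA per cell cannot be told apart.

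The stretches before the transcription start of 2 members are shown because these were, with Cyp24a1 and S100g, the members whose groups did not overlap: Trpv6, lower in Bailing Capsule kidneys, and Vdr, slightly higher. Both are 250 bases from RefSeq on build GRCr8, on the minus strand, ending at the base before the start. Trpv6 lies at chr4:71489668-71489917 and Vdr at chr7:130916758-130917007. Capitals mark matches, on either strand, to the half-site AGGTCA or one of its variants GGGTCA or AGTTCA or GGTTCA, to which receptors of this class bind.

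Trpv6: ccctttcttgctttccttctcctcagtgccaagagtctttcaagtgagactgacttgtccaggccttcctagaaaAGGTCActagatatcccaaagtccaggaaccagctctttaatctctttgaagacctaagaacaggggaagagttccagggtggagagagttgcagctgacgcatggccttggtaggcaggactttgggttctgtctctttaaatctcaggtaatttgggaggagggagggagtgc

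Vdr: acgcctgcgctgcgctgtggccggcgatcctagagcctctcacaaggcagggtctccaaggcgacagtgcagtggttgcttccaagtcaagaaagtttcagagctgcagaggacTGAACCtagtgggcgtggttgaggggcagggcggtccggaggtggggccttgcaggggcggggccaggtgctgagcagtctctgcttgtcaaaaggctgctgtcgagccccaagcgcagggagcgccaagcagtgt

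Upstream sequence was found for 7 of the 10 genes. The Trpv6 stretch holds 1 AGGTCA on the forward strand, which begins 175 bases before the start. The Vdr stretch holds 1 GGTTCA on the reverse strand. Among the other 5, Cyp27b1 holds 1 GGTTCA and Trpv5 1 GGGTCA, while Slc8a1, Atp2b1 and Atp2b4 hold none of the 4. Single half-sites are common: of 27457 stretches of the same length, 13.7% hold AGGTCA and 9.62% hold GGTTCA. A pair of these half-sites as a direct repeat spaced by 3 bases, the arrangement known as DR3, stands in 26 of all the stretches and in 0 of the 7. Such matches describe the letters of these windows only.

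Cyp24a1 was lower on every Bailing Capsule array. Its values were -0.42, -0.80 and -1.48 in diabetic replicates 1, 2 and 3 and -3.90, -2.999 and -3.52 in Bailing Capsule replicates 1, 2 and 3. The highest Bailing Capsule value lay 1.52 below the lowest diabetic value, a gap wider than the range within either group (1.06 and 0.90). The means were -0.90 ± 0.54 and -3.47 ± 0.45 (SD, n = 3), a difference of -2.57 (SE 0.34) or 5.94-fold. All 6 spots were well above background, at processed signals of 128 to 204 intensity units in diabetic kidneys and 14.98 to 46.9 in Bailing Capsule kidneys. Within slide 1 the difference was -3.05.

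Cyp24a1 was the 1 member called, and it was called lower. Over all features 0.319% were called and 0.19% were called lower; since the members were chosen with this contrast in view, nothing is read from the count. Its call was not made with normexp background correction and quantile normalization together, where the difference was -1.27, without the filter on dim probes, within slide 1, or without diabetic replicate 2 (-2.52) or Bailing Capsule replicate 3 (-2.55). The sign was negative under all 19 alternatives, which are not 19 separate checks. Cyp24a1 has 1 probe, so the filters, probe rules and variance models among them could only return -2.57.

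Cyp27b1, the activating enzyme, overlapped between the groups. It had -0.48, 0.10 and -0.55 in diabetic kidneys and -0.33, -0.90 and -1.05 in Bailing Capsule kidneys. Bailing Capsule replicate 1 lay above diabetic replicates 1 and 3. The difference was -0.45 (SE 0.30), or -0.28 within slide 1.

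Vdr varied little. It had -1.77, -1.73 and -2.09 in diabetic kidneys and -1.48, -1.61 and -1.63 in Bailing Capsule kidneys. The groups did not overlap, but the gap of 0.10 was smaller than the range of 0.36 among diabetic arrays. The difference was 0.29 (SE 0.24), a 1.22-fold higher mean, and 0.20 within slide 1.

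**Figure D1:**
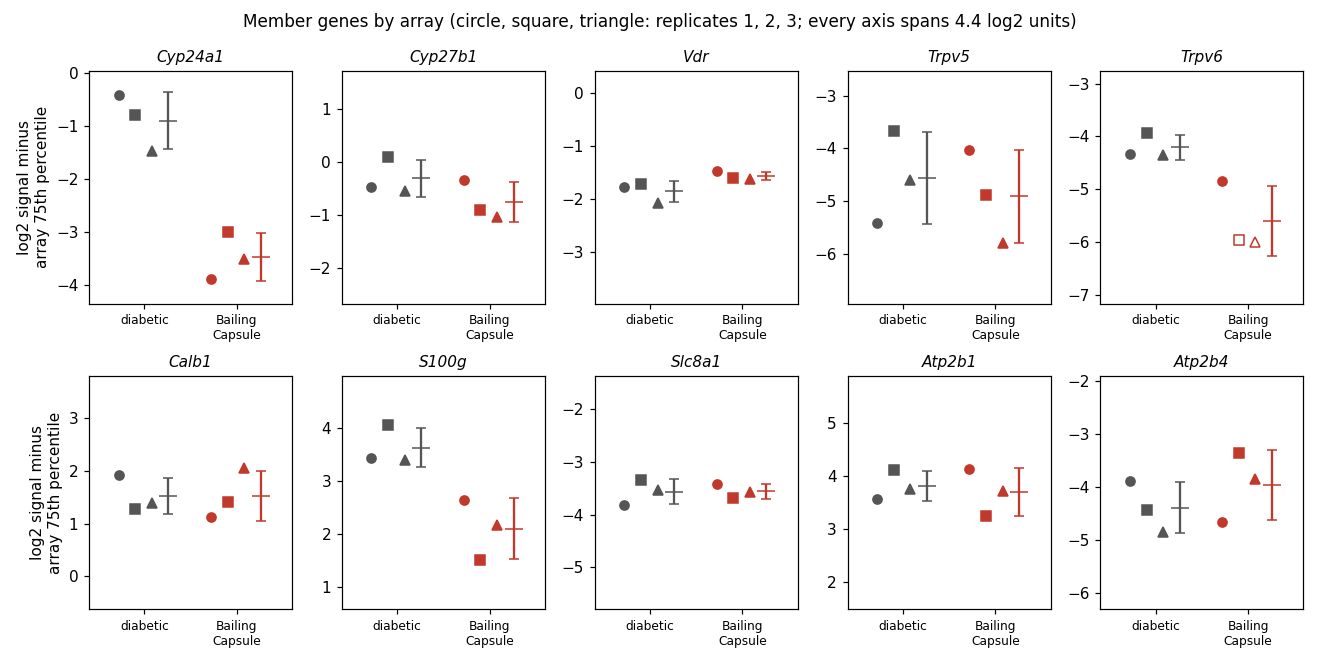
Log2 signal relative to the array's 75th percentile for the 10 members, 1 panel a gene, with diabetic arrays in grey and Bailing Capsule arrays in red. Symbols are single arrays, open where the spot was not well above background, and the bar beside them is the mean with SD (n = 3). Cyp24a1, Trpv6 and S100g lie lower on all 3 Bailing Capsule arrays, Vdr lies slightly higher, and the other 6 genes overlap.

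The calcium entry channels Trpv5 and Trpv6 are close paralogues and direct neighbours on chromosome 4, with 0 annotated genes between them. Both probes were dim, so their values are imprecise. Trpv6 had -4.34, -3.93 and -4.36 in diabetic kidneys and -4.84, -5.95 and -5.99 in Bailing Capsule kidneys. All 3 Bailing Capsule arrays were below all diabetic arrays, with replicates 2 and 3 about 1 log2 unit under replicate 1.

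The Trpv6 difference was -1.39 (SE 0.34), and -1.26 within slide 1. Both values rest partly on 2 Bailing Capsule spots not well above background, so no fold is given for Trpv6. Its processed signals were 13.5 to 18.8 in diabetic kidneys and 3.72 to 7.81 in Bailing Capsule kidneys, and 1 of the 3 Bailing Capsule spots was well above background. With normexp, which adds an offset of 50 to every signal, and quantile normalization together, the difference was -0.19. It was not called with all 6 arrays. Without Bailing Capsule replicate 1 it was called at -1.77, a value that rests on 2 Bailing Capsule spots not well above background and is no measure of size.

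Trpv5 spread widely within each group. Its brighter probe had -5.40, -3.68 and -4.59 in diabetic kidneys and -4.04, -4.88 and -5.79 in Bailing Capsule kidneys. The ranges of 1.73 and 1.75 covered each other, and the difference was -0.34 (SE 0.50). Within slide 1 it was 0.50, of the opposite sign. The second Trpv5 probe was not well above background on any array. Its group means were -6.21 ± 0.91 and -6.03 ± 0.37 (SD, n = 3), for which no fold is given.

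S100g, which encodes calbindin-D9k, had 3.44, 4.07 and 3.41 in diabetic kidneys and 2.65, 1.51 and 2.17 in Bailing Capsule kidneys. Every Bailing Capsule array lay below every diabetic array, by at least 0.76. The means were 3.64 ± 0.37 and 2.11 ± 0.57 (SD, n = 3), a difference of -1.53 (SE 0.34) or 2.89-fold, and -1.33 within slide 1.

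S100g was bright, with processed signals of 2962 to 4105 in diabetic kidneys and 1067 to 1400 in Bailing Capsule kidneys. Its difference was -1.24 with normexp and quantile normalization together, and -1.45 with quantile normalization alone. The deposited table gave -1.40. It was not called with all arrays, and was called without Bailing Capsule replicate 1 (-1.80), the array with the smallest decrease.

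Calb1, which encodes calbindin-D28k and marks the same tubule segments, had 1.91, 1.27 and 1.39 in diabetic kidneys and 1.13, 1.40 and 2.04 in Bailing Capsule kidneys. The groups overlapped almost fully, and both means were 1.52 (SD 0.34 and 0.47, n = 3). The difference was -0.0012 (SE 0.31), and its sign changed under 7 of 19 alternatives. Within slide 1 it was -0.39. The difference of Calb1 from S100g was not tested, because both were chosen on this contrast.

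The genes of calcium exit overlapped between the groups on the probes that stand for them. Slc8a1, the exchanger, had -3.82, -3.35 and -3.54 in diabetic kidneys and -3.42, -3.69 and -3.58 in Bailing Capsule kidneys, a difference of 0.0082 (SE 0.25). A further Slc8a1 probe, printed in 10 spots on each array, gave -0.14 (SE 0.31) and also overlapped. The third, which did not pass the filter, was well above background on 1 diabetic and 2 Bailing Capsule arrays, and no difference is given for it. Within slide 1 the first probe gave 0.26.

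Atp2b1, the widely expressed calcium pump, was bright on both of its probes. The brighter had 3.57, 4.11 and 3.75 in diabetic kidneys and 4.14, 3.23 and 3.72 in Bailing Capsule kidneys, a difference of -0.11 (SE 0.30). The other had 1.69, 2.29 and 1.98 against 2.19, 2.34 and 2.08, a difference of 0.22 (SE 0.26). The probes thus lay on either side of 0, each within 1 SE. Within slide 1 the brighter probe gave 0.13.

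The probes of Atp2b4, a second calcium pump, disagreed. The brighter had -3.89, -4.43 and -4.85 in diabetic kidneys and -4.66, -3.35 and -3.85 in Bailing Capsule kidneys, a difference of 0.44 (SE 0.37). The other had -4.99, -3.33 and -3.40 against -4.81, -4.88 and -3.96, a difference of -0.64 (SE 0.45). Both probes were dim, at signals of 7.94 to 36.7, and both overlapped between groups. Diabetic replicate 1 was the highest diabetic array on the brighter probe and the lowest on the other. Within slide 1 the brighter probe gave -0.06, so no direction is given for this gene.

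**Figure D2:**
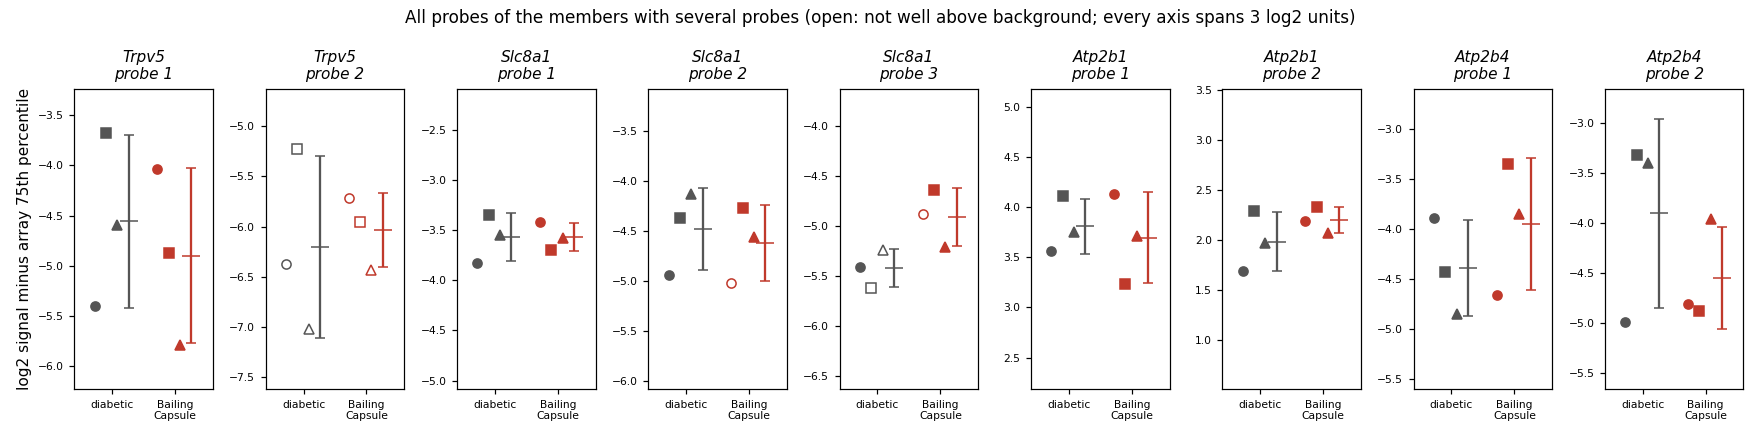
Log2 signal relative to the array's 75th percentile for all 9 probes of the 4 members with several probes, probe 1 being the one that stands for the gene. Symbols are single arrays (circle, square and triangle for replicates 1, 2 and 3), open where not well above background, with the mean and SD (n = 3) beside them. The Atp2b4 probes differ in direction, and the second Trpv5 probe is open on all 6 arrays.

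Of the 10 members 7 had negative and 3 positive differences on the probes that stand for them. The split is not firm, since Calb1 (-0.0012) and Slc8a1 (0.0082) lay near 0 and no direction is given for Atp2b4. The median was -0.23, beside a median of -0.0897 over all features, of which 62.1% were negative. With the filter on all 6 arrays, which leaves Trpv6 out, the medians were -0.11 over the members and -0.0916 over all features. Groups did not overlap for 4 members, 3 lower and 1 higher. One of the lower, Trpv6, passed the filter through the diabetic arrays alone, where it was high, so nothing is read from this count. Over all features 11.6% did not overlap, 7.06% with Bailing Capsule lower and 4.58% with it higher. Relative to each gene's diabetic mean, the medians over the members were -0.15, 0.25 and -0.19 on the diabetic arrays and -0.15, -0.45 and -0.41 on the Bailing Capsule arrays. Bailing Capsule replicate 1 thus lay at the level of diabetic replicates 1 and 3, and the members as a group did not separate the groups.

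The 3 genes that were lower differed in which array was lowest. Bailing Capsule replicate 1 had the lowest Cyp24a1 value but the highest S100g and Trpv6 values of its group. Bailing Capsule replicate 2 had the highest Cyp24a1 and the lowest S100g value. Within the groups, Cyp24a1 thus did not share its order of arrays with S100g or Trpv6. The brighter Atp2b4 probe had the same order as Cyp24a1, but the other Atp2b4 probe did not. Both Atp2b4 probes and Trpv6 were dim, and nothing is read from these orders.

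**Figure D3:**
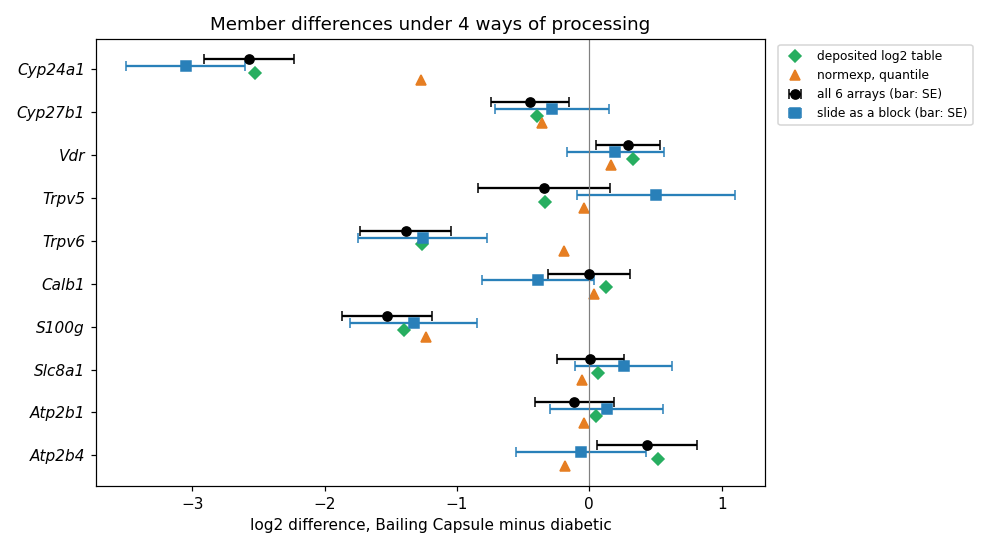
Log2 difference, Bailing Capsule minus diabetic, of each member with all 6 arrays and with slide as a block (bars: SE), in the authors' deposited table and after normexp with quantile normalization. Cyp24a1, S100g and Trpv6 are negative in all 4, and Trpv6 shrinks from -1.39 to -0.19 with normexp. Trpv5, Calb1, Slc8a1, Atp2b1 and Atp2b4 have values on both sides of 0.

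Of 14 other genes of vitamin D synthesis, carriage and receptor action, 10 were positive and 4 negative, with a median of 0.17, or 0.36 under the slide block. Of these, 1 was called higher and 0 lower. The called gene was Cyp3a9, a cytochrome P450 of the family that hydroxylates steroids and drugs. It had -7.05, -6.48 and -7.31 in diabetic kidneys, where it was not well above background on any array, and -3.82, -4.40 and -4.23 in Bailing Capsule kidneys, where it was on all 3. It was at least 2.35-fold higher, the diabetic level being taken as no lower than the dimmest signal well above background. The call (limma, adjusted p = 0.00522) was made on the measured values and does not test this bound. Cyp3a9 passed the filter through the Bailing Capsule arrays alone, where it was high. It was also called with slide as a block (limma, adjusted p = 0.0257).

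Receptor targets outside the members, a list that also holds Cyp3a9, likewise had 1 of 14 called higher and 0 lower, with 7 positive and 7 negative values and a median of 0.02.

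Of hormones and receptors that set renal calcium and vitamin D, 0 of 14 were called higher and 1 lower, with a median of -0.02. Calca, the calcitonin gene, was the called one. It had -4.68, -3.37 and -4.30 in diabetic kidneys and -6.86, -7.44 and -7.82 in Bailing Capsule kidneys, where it was not well above background on any array. It was at least 2.92-fold lower, and passed the filter through the diabetic arrays alone, where it was high. The call (limma, adjusted p = 0.00758) was made on the measured values and does not test this bound. Calca was not called under the slide block (limma, adjusted p = 0.0557).

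Of the other calcium pumps, exchangers and calcium-binding proteins, 0 of 15 were called in either direction, while 13 were negative, with a median of -0.26. The smallest p belonged to Slc8a3, a second sodium-calcium exchanger, at -0.85, 0.57 and -0.52 in diabetic kidneys and -1.99, -1.56 and -1.75 in Bailing Capsule kidneys. The groups did not overlap, and the Bailing Capsule mean was 2.83-fold lower (SE 0.36 on the log2 scale; limma, adjusted p = 0.182). Under the slide block the difference was -0.92. Atp2a3, a calcium pump of the endoplasmic reticulum, had -0.52, or 0.06 under the slide block. The plasma membrane pump Atp2b2 had -0.45, or -0.50 under the slide block. Both genes overlapped between the groups. The median of the list with slide as a block was -0.03.

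Markers of the segment in which the calcium transport members are expressed were mostly positive, none of them past the threshold. Of 13 tested genes of the distal convoluted and connecting tubule 12 were positive, and the median was 0.20, or 0.38 under the slide block, with 0 called. Slc12a3, the thiazide-sensitive sodium-chloride cotransporter, had 0.49 (SE 0.30; limma, adjusted p = 0.824). Hsd11b2, which inactivates glucocorticoids, had 0.50, and Cnnm2, a magnesium-handling gene, 0.61. The medians by array overlapped, at -0.24, 0.41 and -0.21 in diabetic and 0.23, 0.35 and 0.19 in Bailing Capsule kidneys. The summed level of the 13 markers, in units of each array's 75th percentile, was 100.4 to 177 in diabetic and 137 to 144 in Bailing Capsule kidneys. The part of these markers in the S100g and Trpv6 differences was not tested.

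Of 14 thick ascending limb and paracellular calcium genes 0 were called higher and 1 lower, with a median of 0.21, or 0.15 under the slide block. The medians by array did not overlap, at 0.03, 0.22 and -0.14 in diabetic and 0.30, 0.25 and 0.27 in Bailing Capsule kidneys. The summed level overlapped, at 211 to 311 and 182 to 353. The called gene was Cldn14, a claudin that blocks paracellular calcium reabsorption in the thick ascending limb. It had -2.18, -1.15 and -1.35 in diabetic kidneys and -4.19, -5.02 and -3.36 in Bailing Capsule kidneys. Its difference was -2.63 (SE 0.43; limma, adjusted p = 0.0369), and -2.01 under the slide block, where it was not called (limma, adjusted p = 0.278).

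Cyp24a1 and Cyp27b1 are expressed mainly in the proximal tubule. Of 16 proximal tubule markers 12 were negative, and the median was -0.29, or 0.04 under the slide block, with 0 called. The sodium-glucose cotransporter gene Slc5a1 had -0.78, the sulfate transporter gene Slc13a1 -0.51 and the organic anion transporter gene Slc22a8 -0.43. Under the slide block Slc5a1 turned to 0.20, while Slc13a1 had -0.43 and Slc22a8 -0.35. The medians by array were -0.28, 0.27 and -0.04 in diabetic and -0.04, -0.44 and -0.39 in Bailing Capsule kidneys, and the summed level was 688 to 1106 and 569 to 994. Bailing Capsule replicate 1, which had the lowest Cyp24a1 value, had a marker median of -0.04, a single array from which nothing is read. The part of these markers in the Cyp24a1 difference was not tested.

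Of 13 collecting duct markers 10 were positive, with a median of 0.52, or 0.68 under the slide block. The medians by array did not overlap, at -0.12, 0.34 and -0.17 in diabetic and 0.45, 0.43 and 0.44 in Bailing Capsule kidneys. The summed level overlapped, at 108 to 173 and 97.8 to 152. The separation of these medians was not tested. Of the 13 markers, 1 was called higher. This was Slc26a4, the chloride-bicarbonate exchanger pendrin, at 1.68 (SE 0.28; limma, adjusted p = 0.0457), and 1.87 with slide as a block (limma, adjusted p = 0.13). The 3 negative genes were the aquaporins Aqp2 (-0.48), Aqp3 (-0.84) and Aqp4 (-0.34), water channels named after their values were seen, none of them called. Under the slide block Aqp2 had 0.0022, Aqp3 -0.97 and Aqp4 -0.82. Markers of liver, adrenal, intestine, blood and adipose cells had 11 tested genes, 0 of them called, with a median of -0.14. Their summed level was 81.4 to 106 in diabetic and 62.4 to 140 in Bailing Capsule kidneys. The red cell gene Alas2 had 1.04 and the liver gene Alb -1.37.

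**Figure D4:**
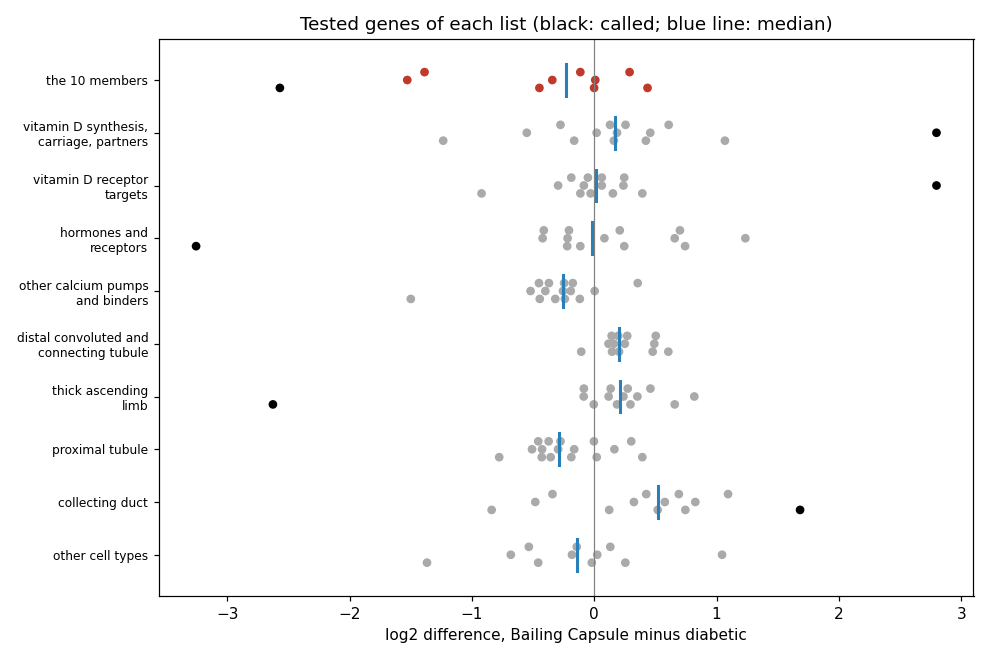
Log2 difference, Bailing Capsule minus diabetic, of every tested gene of the members and of 9 gene lists. Each point is a gene, black where called over all features, and the blue line is the median. Cyp3a9 and Calca are drawn at measured differences that rest on values not well above background in 1 group. The members spread from -2.57 to 0.44, while the distal tubule markers lie between -0.11 and 0.61.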

How the data were processed

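Rat kidney RNA of 6 samples was labelled with Cy3 and hybridised to 1 array each. Per the file headers, Agilent Feature Extraction 11.0.1.1 made the deposited spot intensities, with background subtraction and detrending but no scaling between arrays. The authors' deposited table holds log2 values with column medians of 5.05 to 5.06, nearly equal between arrays. How it was made is not given in the sources used here; between 21.3% and 28.9% of its values per array sit at the lowest value. It served as an alternative.

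Spots flagged as outliers were left out, log2 processed signals were averaged per probe, and each array's 75th percentile was subtracted. On each array a probe was held to be above background if 50% or more of its spots were marked so. Probes reaching this on every array of either group entered the fit, and the brightest kept probe stood for a gene. RefSeq accessions were named through a gene table of GRCr8 (18005 probes named, 12362 not). The array annotation is on rn4, so no coordinates of probes are given.

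The comparison used limma 3.58.1 (R 4.3.3) with Benjamini-Hochberg adjustment over all 17892 features; the fit was checked on simulated arrays. The number of arrays limits the precision. The members and the 10 gene lists were chosen with earlier results of these data known. Named from each list are every called gene or, with none called, the 3 with the smallest p, and others are marked; for 3 members, the 5 genes with the most similar profile, of which 1 is not reported here. The design assumed a slide label; slides were told apart by scan time and array position. Slide 2 held no Bailing Capsule array. Alternatives were normexp (offset 50), quantile and median scaling, the deposited table, leaving the filter out or requiring all 6 arrays, other probe rules and variance models, a minimum fold of 1.2, blocks and leaving out each array.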

Additional observations from a re-analysis of the deposited data

How the results depend on the processing

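The number of called features was 57, with 40.4% higher, and 1 member, Cyp24a1, was among them. With normexp and quantile normalization 14 features and 0 members were called, and without the filter on dim probes 6 and 0. At a minimum fold of 1.2 there were 37 features, Cyp24a1 included. Within slide 1, a fit chosen after the data were seen, 7 features and 0 members were called, on fewer arrays. The share called higher was 54.3% in the deposited table, and 71.8% with slide as a block, where Cyp24a1 stayed called. Leaving out 1 array gave 17 to 326 features, namely 326, 17 and 23 without diabetic replicates 1, 2 and 3 and 122, 28 and 25 without Bailing Capsule replicates 1, 2 and 3. Members called then ran from 0 to 3, and the median member difference from -0.65 (without diabetic replicate 1) to -0.046 (without diabetic replicate 2), against -0.23; without Bailing Capsule replicate 1 it was -0.50. Under a replicate block, built from the labels' numbers, 6 features and 0 members were called. Same-numbered arrays correlated at -0.18, -0.14 and 0.02 after group means were removed, and 0 of 6 correlated best with their own number, so the numbers were not taken as pairs. Cyp24a1, Cyp27b1, Vdr, Trpv6 and S100g kept their sign under every alternative that gave a value. Each has 1 probe, so the filters, probe rules, variance models, minimum fold and replicate block could not change its difference. The slide block and the fit within slide 1 likewise give a single value. Trpv5 changed sign under 4 of 19, Slc8a1 under 5, and Calb1, Atp2b1 and Atp2b4 under 7 each. Trpv6 gave no value under the filter on all 6 arrays. The cause of these changes was not tested. Trpv5, Trpv6, Slc8a1 and Atp2b4 lay close to background, which limits what their values show.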

Other observations

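The genes whose values lay closest to those of a member were sought among 10392 named genes with values on all 6 arrays. Closeness was the root mean square difference between log2 values, each taken relative to the gene's own diabetic mean. A group difference of like size counts in this measure, so a close gene need not share the member's order of arrays. The arrays share group, slide and scaling, so this is a description of likeness and carries no test. Among the genes closest to Cyp24a1 were Spata22, Rarres2, which encodes chemerin, RT1-Db1, a class II histocompatibility gene, and Il1rl1, the interleukin-33 receptor, at 0.48 to 0.59 log2 units. On Bailing Capsule replicate 1, where Cyp24a1 was lowest, Spata22 was also lowest of its group, while RT1-Db1 and Il1rl1 were highest.

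For S100g the closest were Fbp2, a fructose bisphosphatase, at 0.0845 log2 units, and Baat, which conjugates bile acids to amino acids, at 0.14. Fbp2 had -0.15, 0.44 and -0.29 in diabetic kidneys and -0.91, -1.98 and -1.38 in Bailing Capsule kidneys. The differences of Fbp2 and Baat were -1.42 (SE 0.33) and -1.49 (SE 0.32), and neither was called. The next were Nmb, which encodes neuromedin B, Tp73, a p53 family gene, and Esm1, an endothelial gene, at 0.20 to 0.21. For Calb1 the closest were Stard9, Nudcd1, Higd1a, Jrkl and Zfp367, at 0.13 to 0.15, with differences from -0.10 to 0.14.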
